A study of Mus musculus with 24 samples.

Results

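The comparison described here sets lacrimal gland stem cell (LGSC) spheres kept in culture for 14 days against whole lacrimal gland (LG) of the mouse embryo at E19.5, close to birth. It rests on 6 of the 21 libraries of the series that have a table, 3 of each kind, out of 24 listed. Genes were kept where their mean over the 6 libraries was at least 0.5 FPKM (read fragments scaled to transcript length and library size), which left 17611 of 63862 genes, 9764 of them protein-coding and 3866 of them loci assembled from the reads without a gene name.

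The LGSC spheres were grown from dissociated LGs of C57BL/6 mice aged 6 to 8 weeks and were at passage 2. Single cells were embedded in Matrigel, a basement membrane gel, under a serum-free medium that held the growth factors EGF, FGF10 and Wnt3A and the kinase inhibitor Y-27632. The study passages such spheres every 7 days, and it let them differentiate without a directed signal by leaving them for 14 days in the same medium and gel. The E19.5 LG libraries came from whole glands of C57BL/6 embryos, with no sorting of cells named in the labels. Poly-A RNA was sequenced from both. The labels number the replicates without saying whether they came from separate animals or cultures, so that p-values measure the spread between these samples, which may be technical. Age of the donor, culture and the mixture of cells all differ between the groups and cannot be told apart. In bulk RNA, fewer cells of a type and less RNA per cell cannot be told apart either.

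The LG arises as a bud of the conjunctival epithelium that branches into a mesenchyme supplying FGF10, and late in gestation it holds dividing acinar and duct precursors beside fibroblasts, vessels, nerves and leukocytes. Its basal and myoepithelial cells carry keratins such as Krt5 and Krt14, its ducts Krt19 and its acini the water channel Aqp5 and secreted proteins such as lactotransferrin. Epithelial cells leave the cell cycle as they differentiate, but arrest is also known from culture, where inhibitors of the INK4 family and targets of p53 take part.

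The reads recovered from the steps of the FPKM values numbered 7201131 to 7897254 in the day 14 libraries and 8784014 to 9146820 in those of E19.5 LG. Over the genes tested, log2(FPKM + 1) correlated at 0.975 to 0.981 among the E19.5 LG libraries, at 0.908 to 0.96 among those of day 14 and at 0.736 to 0.778 between the groups. Replicate 2 of day 14 stood apart. It listed 125 genes at least 8-fold above and 31 at least 8-fold below both other day 14 libraries, counting genes with a value of at least 5 FPKM, against 0 and 13 for replicate 1 and 12 and 0 for replicate 3. Where a named gene lost or gained its call without replicate 2, or its called difference moved by over 1.5 times in fold, that is given beside it.

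Some genes were listed low in all 20 passage 2 and tissue libraries. Of the 5046 protein-coding genes with at least 10 FPKM in the only passage 10 library, which was made against another gene list, 2230 (44.2%) stayed under 0.1 times that value in every one of the 20, and 516 were at 0 in all of them. Krt8, Epcam and Mki67 were among those at 0. The cause was not tested. Of the 17611 genes, 539 (3.06%) were listed low by the same share when genes with at least 1 FPKM in the passage 10 library were counted, and a result on a named gene of this kind says so.

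The markers of other cell types separated the groups almost completely. The 12 fibroblast markers summed to 5680 to 6820 FPKM in E19.5 LG and 9.74 to 166 FPKM in the spheres, with 8 lower and none higher. Fbln1, an elastic fibre protein, supplied most of the highest sphere value. The 8 endothelial markers summed to 248 to 314 FPKM in the gland and at most 0.152 FPKM in the spheres. For the 10 leukocyte markers the sums were 376 to 504 and 1.36 to 1.82 FPKM. Pericyte and smooth muscle markers overlapped, at 218 to 240 and 106 to 359 FPKM, since Mcam and Rgs5 were also listed in the spheres. Adipocyte markers summed to 112 to 141 FPKM in the gland and 1.83 to 7.7 FPKM in the spheres, and the sums for erythroid, skeletal muscle, nerve and melanocyte markers were lower than those and again higher in the gland. Epithelial markers were present on both sides, at 617 to 2720 FPKM in the spheres and 771 to 962 FPKM in E19.5 LG, although Epcam and Krt8 were at 0 throughout. The 9 basal and myoepithelial markers summed to 2310 to 3220 FPKM in the spheres and 1090 to 1220 FPKM in the gland, and the 5 duct markers to 237 to 283 and 47.2 to 52.2 FPKM. Of the 6 acinar markers, Bhlha15 and Dmbt1 were at 0 in all 6 libraries and Ltf and Mucl2 alone reached a mean of 0.5 FPKM. Since genes that every cell uses are also at 0 in these tables, the acinar markers do not tell whether either group held acinar cells. The part that the mixture of cells plays in the differences below was not tested.

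With limma on log2(FPKM + 1), 3187 genes were higher and 5332 lower at day 14 than in E19.5 LG at an adjusted p under 0.05. These are 18.1% and 30.3% of the genes tested, 48.4% in all, and they are the background for each count of list members given here. The lists and their members were chosen with earlier results of these data known. Counts set against this background are therefore descriptions and not independent tests. Every library of day 14 was above every library of E19.5 LG for 24.3% of the genes and below for 36.0%. Among the 12797 genes that averaged 0.5 FPKM or more in each group, 16.5% were higher and 24.1% lower. Differences over 2 on the log2 scale numbered 344 higher and 1199 lower, and those over 5 numbered 22 and 106. The split depended on the scale of the libraries. All FPKM values of a library summed to 310144 to 335020 at day 14 and 376838 to 463179 in E19.5 LG. The median difference of all genes was -0.13 as deposited, and 37.4% of the calls were higher, whereas scaling to TPM gave 4394 higher and 3988 lower (52.4%, median 0.10) and quantile normalization gave 4729 and 4120 (53.4%, median 0.10). Medians of some lists moved further, that of the stress lists given below from 0.246 as deposited to 0.588 under TPM. The direction of a difference within such shifts depends on the scale.

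The genes furthest above the gland were keratinocyte and barrier genes, secreted defence proteins and 2 cell cycle inhibitors. Krt17, a keratin of basal and stressed epithelium, was listed at 3079, 1580 and 3011 FPKM at day 14 and 32.9, 43.2 and 46.6 FPKM in E19.5 LG. The groups did not come near each other, with a log2 difference of 5.88 (SE 0.295, adjusted p = 2.76e-05). Slpi, a secreted inhibitor of leukocyte proteases, was listed at 316, 269 and 376 against 1.07, 0.848 and 1.30 FPKM, with a log2 difference of 7.27 (SE 0.17, adjusted p = 1.96e-06). Pkp1, a desmosomal plaque protein, was at 406, 501 and 379 against 7.54, 5.71 and 6.39 FPKM. The spheres were alike for both genes, and Pkp1 had a log2 difference of 5.83 (SE 0.164, adjusted p = 3.54e-06). The chemokine Cxcl5, the beta defensin Defb14 (listed at 0 in every E19.5 LG library, and with an adjusted p of 0.096 by voom on recovered reads), the annexin Anxa8, the membrane serine protease Tmprss11g and AA467197 were also among the 12 largest. Replicate 2 was far from the other spheres for Aqp3, a water and glycerol channel, at 76.9, 2448 and 225 against 2.25, 1.03 and 1.81 FPKM. It was the highest there and the lowest for Spp1 (osteopontin), which is described with the proteases. The log2 difference of Aqp3 was 7.05, and 5.65 without replicate 2 or 8.13 without replicate 1 of day 14. That of Defb14 was 5.78, and 4.34 and 7.21 in the same fits. Those of Tmprss11g were 6.51, 5.67 and 7.13. Cxcl5 is described with the chemokines.

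The genes furthest below were those of connective tissue and mast cells. Col3a1, a fibrillar collagen, was listed at 0, 0 and 0.245 against 2542, 1996 and 2060 FPKM, and Col1a1 at 0.427, 0.377 and 0.825 against 2118, 1844 and 1927 FPKM. Every gland library was high and every sphere library was near 0, as for Lum, Dcn, Postn, Dpt and the glypican Gpc3. The mast cell proteases Cpa3, Cma1 and Mcpt4 were next, with 0.0740, 0 and 0.159 against 991, 946 and 1379 FPKM for Cpa3. The growth factor Igf2 was at 0.0392, 0.216 and 0.0421 against 695, 588 and 634 FPKM, and the angiotensin receptor Agtr2 was listed at 0 in all spheres and at 443, 435 and 527 FPKM in the gland. H19, the noncoding RNA beside Igf2, and Dlk1, both imprinted genes of fetal growth named after their values were seen, had the same pattern, with 0, 0.0474 and 1.17 against 2395, 2066 and 2165 FPKM for H19 and 0, 1.03 and 0.0851 against 363, 329 and 340.0 FPKM for Dlk1. The difference of H19, -10.71, was larger than those of all but Col3a1 among the 12 named, which are protein-coding.

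**Figure D1:**
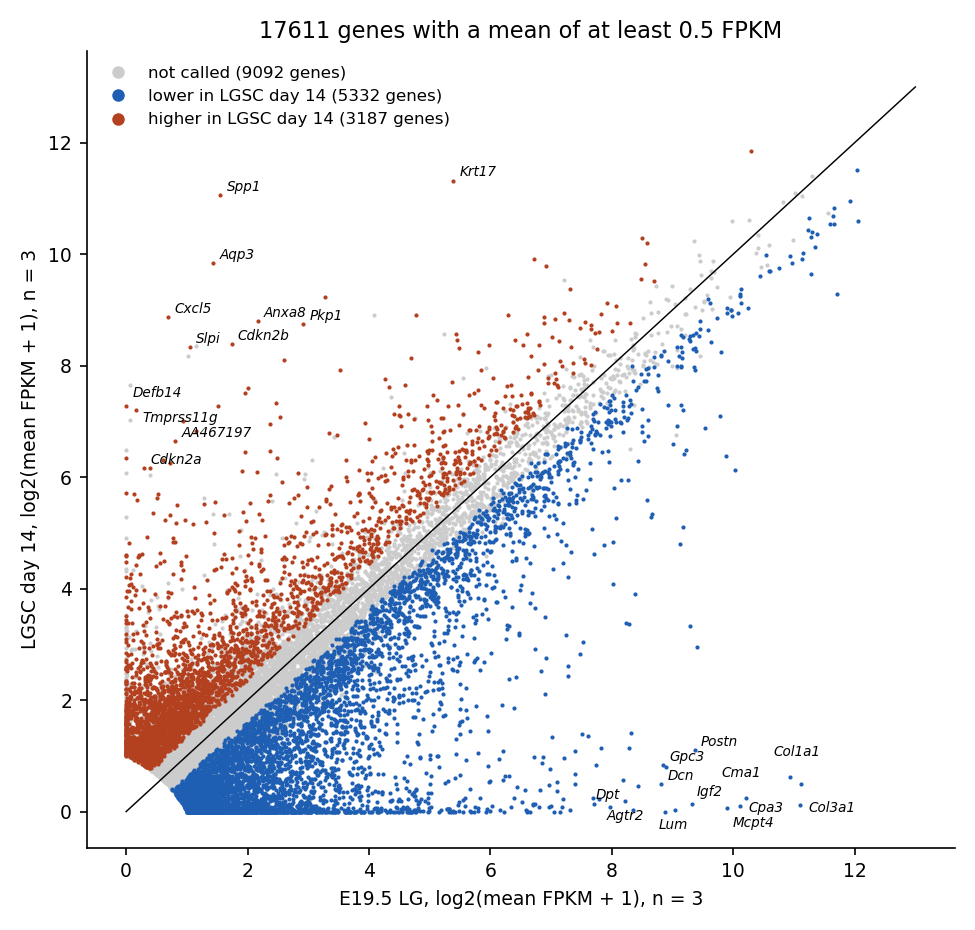
Mean level of each of the 17611 genes in E19.5 LG (x axis) and in LGSC spheres at day 14 (y axis), both as log2(mean FPKM + 1) of 3 libraries, with the 3187 genes called higher and the 5332 called lower in colour. The named genes are the 12 largest differences in each direction among protein-coding genes, and those named below the diagonal, from Col3a1 to Mcpt4, are near 0 in the spheres.

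Most proliferation genes were lower in the spheres. Of the 104 members of the 3 lists, 75 reached 0.5 FPKM, of which 61 were lower and 5 higher, against 30.3% and 18.1% of all genes. The median difference was -1.65. The members called higher were Cdkn1a, Cdkn2a, Cdkn2b, Gadd45a and Rb1, all known as brakes on the cycle or genes of arrest. The list of cell cycle inhibitors and D cyclins supplied all 5 of these and also 6 of the lower members. The counts without replicate 2 of day 14 were 60 lower and 6 higher.

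The DNA replication list had 40 members, 30 of them tested, with 26 lower, none higher and a median of -1.74. Restricted to the 26 genes that averaged 0.5 FPKM or more in each group, 22 were lower. Every sphere library was below every gland library for 27 of the 30 tested members and above for 1, against 36.0% and 24.3% of all genes. Mcm3 and Mcm5 belong to the helicase that opens DNA at origins. Mcm3 was listed at 28.1, 29.7 and 25.5 FPKM at day 14 and 125, 147 and 156 FPKM in E19.5 LG, a log2 difference of -2.32 (SE 0.139, adjusted p = 5.76e-05). Mcm5 was listed at 17.1, 24.6 and 16.3 against 111, 132 and 145 FPKM, a log2 difference of -2.70 (SE 0.198, adjusted p = 1.28e-04). Both genes were uniform among the spheres and lower than in each gland library. The largest difference of the list was that of Prim1, the small subunit of primase, at 2.79, 8.89 and 4.67 against 43.0, 51.3 and 61.1 FPKM, a log2 difference of -3.13 (SE 0.356, adjusted p = 7.63e-04). Replicate 2 was the highest of the spheres and still far below the gland. Mcm4 and Mcm6 were lower too, at -1.65 and -0.85, whereas Mcm7, listed low beside 34.02 FPKM in the passage 10 library, differed by -0.05 and was not called, and Mcm2, listed low as well, had a mean under 0.5 FPKM. The others not called were Tk1 at 0.26, Rfc3 at 0.09 and Pola2 at -0.35. Under TPM, quantile and voom scaling 1 member of the list was called higher.

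The mitosis list had 44 members, 30 of them tested, with 29 lower, none higher and a median of -2.0, and 22 of the 23 members averaging 0.5 FPKM or more in each group were lower. Ccnb1 encodes cyclin B1, which drives entry into mitosis with Cdk1, and Plk1 is a kinase of spindle assembly. Ccnb1 was listed at 7.56, 12.6 and 7.42 FPKM at day 14 and 62.9, 72.9 and 94.2 FPKM in E19.5 LG, a log2 difference of -2.95 (SE 0.248, adjusted p = 2.22e-04). Plk1 was listed at 15.7, 15.8 and 12.04 against 81.0, 71.2 and 67.0 FPKM, a log2 difference of -2.26 (SE 0.157, adjusted p = 1.02e-04). In both genes the lowest gland library exceeded the highest sphere library, and replicate 2 of day 14 was the highest or level with the highest sphere. The largest differences were those of Spc25, a kinetochore subunit, at 2.53, 5.75 and 2.60 against 39.5, 45.6 and 56.6 FPKM, a log2 difference of -3.44 (SE 0.291, adjusted p = 2.29e-04), and of Nusap1, a spindle protein, at 4.01, 7.84 and 4.48 against 50.9, 53.02 and 71.3 FPKM, a log2 difference of -3.24 (SE 0.259, adjusted p = 1.79e-04). Cdk1 itself was at 0.318, 0.524 and 0.220 against 3.94, 3.88 and 4.65 FPKM and Ccnb2, the second B cyclin, at 19.6, 28.1 and 25.5 against 158, 148 and 172 FPKM. Both were lower, with log2 differences of -1.93 and -2.67. Hmgb2, listed low, was the only tested member not called, and Aurka, Aurkb and Mki67 had means under 0.5 FPKM, Mki67 being at 0 in all 20 libraries, so the Ki67 gene gives no reading of proliferation here.

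Late cell cycle genes are known to carry 2 promoter elements, the CCAAT box bound by NF-Y and the CHR element bound by the DREAM and MuvB complexes, so these letters were looked for in the promoters. The windows were the 250 bases before the RefSeq start of each gene (GRCm38.p6), searched on both strands for CCAAT and for TTTGAA. Among the 35 mitosis members with a RefSeq promoter, 26 held CCAAT (74.3%), 13 held TTTGAA (37.1%) and 12 held both (34.3%). Over all 27025 promoters the shares were 37.5%, 18.3% and 6.45%, and over the 8306 of genes tested they were 39.4%, 13.4% and 5.04%. Among the 33 replication members with a promoter they were 57.6%, 12.1% and 9.09%. Neither motif alone was particular to the mitosis list. CCAAT was nearly as frequent in the unfolded protein and integrated stress list, at 72.4%, and less so in the other lists. TTTGAA was held by 4 of 8 promoters of the 12 largest higher differences and 4 of 9 of the 12 largest lower. The share with both was highest in the mitosis list, the next being 11.1% among the largest lower differences. The promoters of the 4 genes with the largest differences among the mitosis members that hold both are shown 5′ to 3′ on the strand of the gene, with both motifs in either orientation in capitals. They lie at chr9:70421555-70421804 (minus strand) for Ccnb2, chr10:69352913-69353162 (minus) for Cdk1, chr4:118437344-118437593 (minus) for Cdc20, which activates the anaphase-promoting complex, and chr2:164769679-164769928 (plus) for Ube2c, the ubiquitin-conjugating enzyme of that complex.
Ccnb2: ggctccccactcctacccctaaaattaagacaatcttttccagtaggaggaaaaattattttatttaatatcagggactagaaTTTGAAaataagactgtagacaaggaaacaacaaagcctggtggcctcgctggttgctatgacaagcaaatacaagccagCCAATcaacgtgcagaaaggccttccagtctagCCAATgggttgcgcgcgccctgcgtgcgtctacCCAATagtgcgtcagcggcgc
Cdk1: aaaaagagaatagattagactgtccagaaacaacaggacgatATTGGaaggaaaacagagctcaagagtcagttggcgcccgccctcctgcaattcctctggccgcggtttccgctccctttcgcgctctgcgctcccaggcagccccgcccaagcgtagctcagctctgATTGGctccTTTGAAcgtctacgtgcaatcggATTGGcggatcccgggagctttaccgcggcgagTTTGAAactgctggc
Cdc20: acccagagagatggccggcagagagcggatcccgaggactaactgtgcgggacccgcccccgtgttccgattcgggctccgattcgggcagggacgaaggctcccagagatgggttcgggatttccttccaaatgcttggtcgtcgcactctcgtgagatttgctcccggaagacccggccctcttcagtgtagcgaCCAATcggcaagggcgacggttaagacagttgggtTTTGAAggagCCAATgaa
Ube2c: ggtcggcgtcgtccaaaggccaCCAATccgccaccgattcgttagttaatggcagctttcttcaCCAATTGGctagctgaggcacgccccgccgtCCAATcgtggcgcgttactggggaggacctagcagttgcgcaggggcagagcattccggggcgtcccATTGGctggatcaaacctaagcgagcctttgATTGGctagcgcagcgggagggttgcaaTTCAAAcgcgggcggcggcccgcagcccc
A match of letters is a description of the window, and whether a factor binds there was not measured. Cdc20 was listed at 30.2, 51.4 and 29.3 against 134, 129 and 142 FPKM and Ube2c at 22.3, 32.5 and 28.1 against 73.4, 74.3 and 97.2 FPKM. Both were lower in every sphere library than in every gland library, with log2 differences of -1.89 and -1.53.

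The inhibitors and D cyclins did not move as 1 group. Of 20 members 15 were tested, with 5 higher and 6 lower and a median of -0.33, which turned to 0.03 under quantile normalization. In each group 13 of them averaged 0.5 FPKM or more, and 3 of these were higher and 6 lower. The lower members numbered 3 under quantile normalization and without E19.5 LG replicate 2 or 3 or day 14 replicate 3. Cdkn2b, which encodes the INK4 inhibitor p15, was listed at 465, 227 and 306 FPKM at day 14 and 2.30, 2.24 and 2.47 FPKM in E19.5 LG, a log2 difference of 6.58 (SE 0.262, adjusted p = 1.17e-05). Cdkn2a, its neighbour encoding p16 and p19Arf, was listed at 103, 49.3 and 58.4 against 0.195, 0.285 and 0.218 FPKM, a log2 difference of 5.78 (SE 0.276, adjusted p = 2.34e-05). All spheres were high for both, replicate 1 the highest, and the gland was near 0 for Cdkn2a. In contrast Cdkn2c, the INK4 inhibitor p18, was lower, at 2.09, 8.91 and 4.53 against 41.7, 46.2 and 43.2 FPKM, a log2 difference of -3.01 (SE 0.402, adjusted p = 0.00147). Cdkn1a, the p53-driven inhibitor p21, was higher at 3.13, 2.68 and 4.33 against 0.257, 0.400 and 0.287 FPKM, a log2 difference of 1.72, but it was listed low, since the passage 10 library had 158.6 FPKM. Cdkn1b (p27) differed by -0.52 with an adjusted p of 0.182, and Cdkn1c had a mean under 0.5 FPKM. Gadd45b, a stress-induced growth arrest gene, was lower, with a log2 difference of -2.05.

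**Figure D2:**
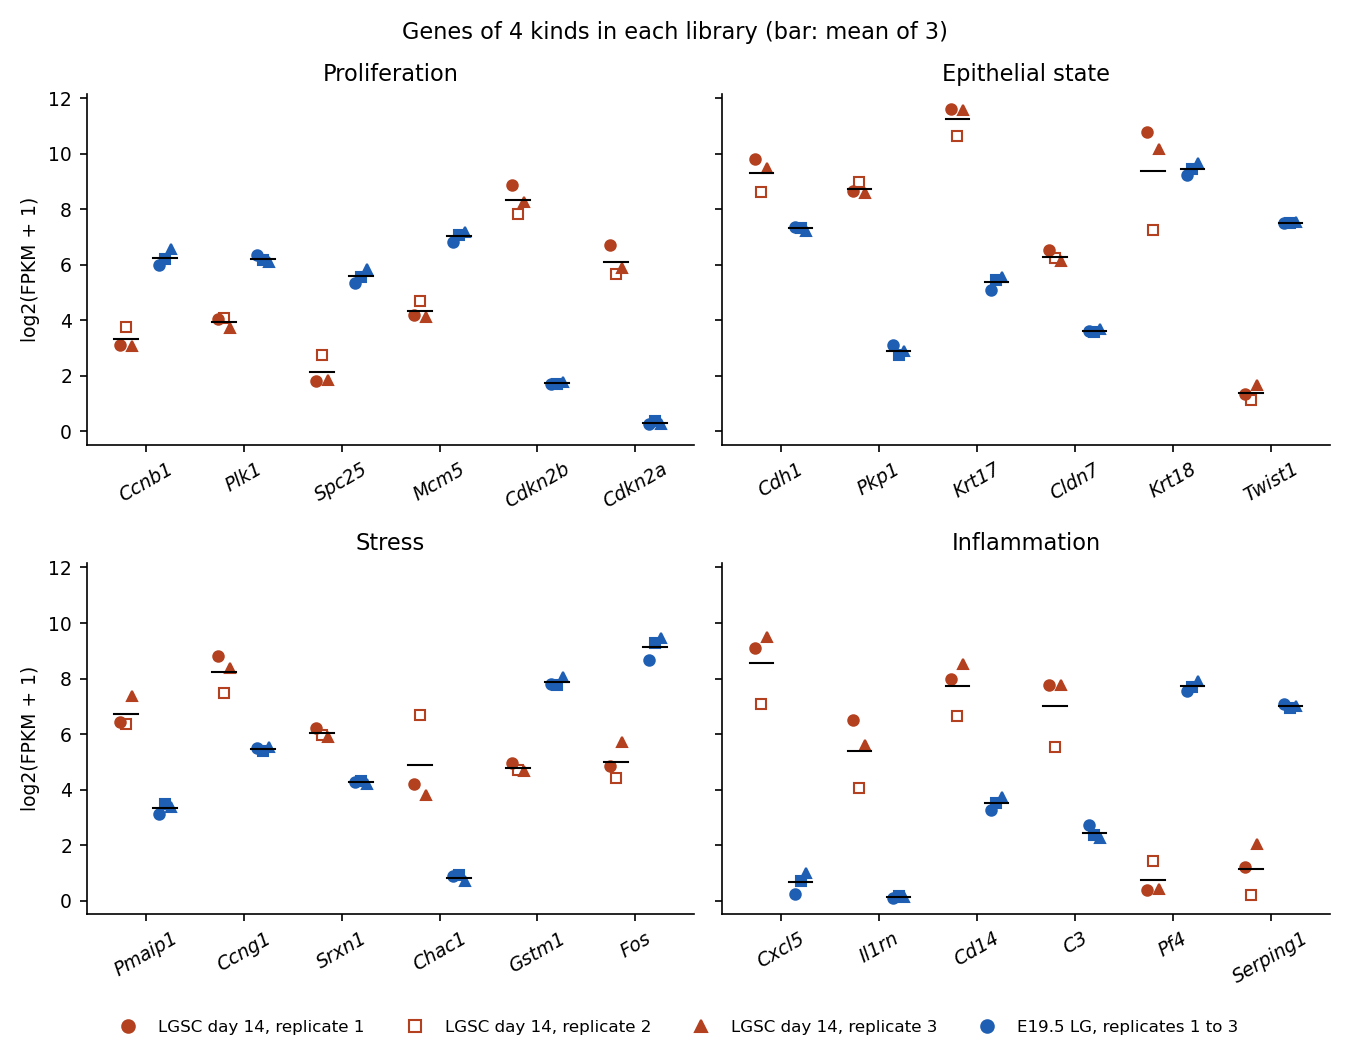
Level of 24 genes, as log2(FPKM + 1), in the 3 day 14 libraries (red, replicate 2 open) and the 3 E19.5 LG libraries (blue), with bars for the means. Ccnb1, Plk1, Spc25 and Mcm5 lie lower in the spheres and Cdkn2b and Cdkn2a higher, and replicate 2 is the lowest sphere for Krt18, C3 and Il1rn and the highest for Chac1.

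The lists on epithelial state, 1 of which holds mesenchymal genes, had more members higher than lower in the spheres. Of the 132 members of 6 lists, 78 were tested, with 35 higher, 21 lower and a median of 0.62. The higher and lower members are 44.9% and 26.9% of those tested, against 18.1% and 30.3% of all genes. The mesenchymal list supplied 3 of the higher and 9 of the lower members. Of the 62 members of all 6 lists averaging 0.5 FPKM or more in each group, 25 were higher and 15 lower. The 54 untested members included 21 at 0 in all 20 libraries, so the lists were covered only in part. Without replicate 2 of day 14, 38 were higher and 24 lower. The excess of higher members was smaller when genes listed low were left out, an alternative added after seeing the data. There 64 members were tested, with 24 higher, 20 lower and a median of 0.31.

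Junction genes were the list with the most members higher. Of 34 members 23 were tested, with 16 higher, 2 lower and a median of 1.47, and 15 of the 22 averaging 0.5 FPKM or more in each group were higher. Cdh1, which encodes E-cadherin, was listed at 894, 388 and 707 FPKM at day 14 and 164, 161 and 147 FPKM in E19.5 LG, a log2 difference of 1.99 (SE 0.304, adjusted p = 0.00263). Cldn7, a tight junction claudin, was at 90.3, 75.4 and 68.4 against 11.4, 10.9 and 11.8 FPKM, a log2 difference of 2.67 (SE 0.144, adjusted p = 3.79e-05). The spheres lay above the gland in each library for both, as for Pkp1. The 2 lower members were claudins. Cldn8 was at 3.14, 5.68 and 3.83 against 67.3, 82.9 and 83.9 FPKM, a log2 difference of -3.94 (SE 0.21, adjusted p = 3.68e-05). Cldn10 was at 5.37, 0.0867 and 6.92 against 32.8, 31.6 and 40.4 FPKM, a log2 difference of -3.23 with an adjusted p of 0.0122 that became 0.0524 without E19.5 LG replicate 3, and -2.33 without day 14 replicate 2. Cldn3 overlapped, at 588, 75.2 and 430.0 against 350.0, 320.2 and 327 FPKM, where replicate 2 of day 14 was the low sphere. Its difference was -0.31 with an adjusted p of 0.749, and 0.60 with an adjusted p of 0.0362 without that library. Epcam and Ocln were at 0 in all 20 libraries and Cldn4 was listed low.

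Among 13 keratins, 8 were tested, with 4 higher, none lower and a median of 1.38. In each group 7 of them averaged 0.5 FPKM or more, and 3 of these were higher. The counts depended on single libraries, with 2 higher without E19.5 LG replicate 2 or 3 or day 14 replicate 3, and 5 higher and 2 lower without day 14 replicate 2. Krt17 was described above. Krt18, the simple epithelial partner of Krt8, was listed at 1734, 152 and 1142 against 594, 690.2 and 803 FPKM, so that replicates 1 and 3 were above the gland and replicate 2 below it. Its difference of -0.04 had an adjusted p of 0.973, and without replicate 2 it was 1.03 with an adjusted p of 0.019. Krt7, a duct keratin, was at 17.4, 3.63 and 16.1 against 3.21, 2.19 and 2.57 FPKM, with replicate 2 again the lowest sphere. The difference of 1.64 had an adjusted p of 0.0433 and lost its call when replicate 1 or 3 of day 14 or any 1 E19.5 LG library was left out, with adjusted p of 0.0933 to 0.127. Without replicate 2 it was 2.29 with an adjusted p of 3.33e-04. Krt5 and Krt14, the basal keratins used to mark LGSCs, were called higher, at 0.461, 2.05 and 1.54 against 0.104, 0 and 0 FPKM and 4.66, 8.18 and 3.35 against 0.781, 0.569 and 0.363 FPKM. These are traces beside the 4931 and 7065 FPKM of the passage 10 library, and Krt5 lost its call without E19.5 LG replicate 2 or 3 or day 14 replicate 3. Krt19 and Krt8 were not tested, the latter at 0 in all 20 libraries. Krt15, a basal keratin, was high in replicate 2 alone, at 5.08, 719 and 18.7 against 46.9, 61.5 and 70.5 FPKM. It differed by -0.44 with an adjusted p of 0.842, and by -2.45 with an adjusted p of 0.0127 without that library.

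Of the 16 epithelial regulators 8 were tested, with 2 higher, 1 lower and a median of 0.26. Klf5, a factor of proliferating basal epithelium, was higher, with a log2 difference of 1.33 and an adjusted p of 0.0134 that rose to 0.0566 without E19.5 LG replicate 3. Elf5, a factor of secretory gland epithelium, was lower at 0.516, 9.10 and 0.655 against 25.2, 30.3 and 33.0 FPKM, a log2 difference of -3.37 (SE 0.722, adjusted p = 0.00984), and replicate 2 came nearest to the gland. Without it the difference was -4.26. The splicing factor Esrp2 differed by 0.27 with an adjusted p of 0.188, and was called higher under TPM, quantile and voom scaling, with adjusted p of 0.022 to 0.032. Trp63, the basal factor p63, was listed low and untested, and so were Grhl2 and Ovol1.

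Of the 14 genes of basal adhesion, 9 were tested and 6 were higher, but Itgb4, Itga6, Col17a1 and Itga3 among those were listed low, with the passage 10 library at 125.4 to 435.5 FPKM. Of the 5 averaging 0.5 FPKM or more in each group, 2 were higher and 1 lower. The list had a median of 0.83, and 2 members were higher when genes listed low were left out, an alternative chosen after seeing the data. The calls of Itgb4 and Col17a1 were lost without any 1 E19.5 LG library (adjusted p 0.0822 to 0.108), and that of Col17a1 also without replicate 2 or 3 of day 14. Lamc1, a chain of the more widespread laminins, was lower at 51.3, 36.9 and 48.4 against 159.9, 139 and 115 FPKM, a log2 difference of -1.58 (SE 0.19, adjusted p = 9.59e-04). The groups did not overlap.

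Genes of LG development and secretion leaned the other way, with 8 of 16 tested members lower, 4 higher and a median of -0.99, from 33 in the list. Of the 11 averaging 0.5 FPKM or more in each group, 6 were lower and 1 higher. Fgf10, the mesenchymal signal for budding that the medium also contained as protein, was listed at 0 in every sphere library and at 61.9, 37.8 and 37.3 FPKM in the gland. Lyz2, a lysozyme of macrophages as well as glands, was at 0, 0 and 0.183 against 119, 91.7 and 121 FPKM, a log2 difference of -6.71 (SE 0.162, adjusted p = 2.20e-06). Both were absent or nearly so from all 3 spheres. Ltf, which encodes lactotransferrin, was higher, at 1.27, 2.18 and 3.21 against 0, 0 and 0.0369 FPKM, a log2 difference of 1.62 (SE 0.232, adjusted p = 0.00196), while the passage 10 library had 406.7 FPKM and Ltf is listed low. Pax6, a factor needed for eye and LG formation, was at 6.65, 13.1 and 13.3 against 4.88, 4.79 and 4.59 FPKM, a difference of 1.01 with an adjusted p of 0.0201. Pigr, the receptor that carries IgA across epithelium, was at 2.40, 1.15 and 7.24 against 0.0568, 0.0276 and 0.0317 FPKM, a difference of 1.91 with an adjusted p of 0.0159. Pax6 and Pigr lost their calls when any 1 E19.5 LG library was left out (adjusted p 0.0531 to 0.0708), Pax6 also without day 14 replicate 3 (0.0626), and without any 1 gland library 1 member of the list was higher. Aqp5, the acinar water channel, was at 0.270 FPKM in replicate 2 of day 14, 0.0667 FPKM in E19.5 LG replicate 2 and 0 in the other 4 libraries. Sox9 and Sox10 were at 0 in all 20 libraries and Fgfr2 had a mean under 0.5 FPKM.

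Mesenchymal genes were mostly lower, 9 of 14 tested members against 3 higher, with a median of -1.38, from a list of 22. Of the 9 averaging 0.5 FPKM or more in each group, 5 were lower and 2 higher. Twist1, a mesenchymal transcription factor, was at 1.52, 1.17 and 2.22 FPKM at day 14 and 180.2, 181 and 183 FPKM in E19.5 LG, a log2 difference of -6.13 (SE 0.17, adjusted p = 3.36e-06). Vim, the intermediate filament vimentin, was at 0.639, 0.0948 and 0.355 against 8.58, 8.42 and 7.85 FPKM, and Cdh2 (N-cadherin) at 0, 0 and 0.0448 against 2.27, 2.58 and 2.21 FPKM. These were low in every sphere, beside the fibroblast markers already given. Snai2, a factor of both mesenchyme and basal epithelium, was not lower. It was at 21.7, 68.9 and 68.1 against 26.3, 20.5 and 21.8 FPKM, with replicate 1 in the range of the gland, and its difference of 1.01 had an adjusted p of 0.106 that fell to 0.00129 without that replicate. Tgfb1, a growth factor that restrains epithelial division, was higher at 78.2, 87.5 and 81.3 against 21.8, 20.01 and 18.0 FPKM, a log2 difference of 1.996 (SE 0.129, adjusted p = 7.51e-05). Acta2, the smooth muscle actin of myoepithelium, pericytes and muscle, was at 24.9, 2.71 and 179.8 against 1007, 1040 and 1093 FPKM. Its log2 difference of -5.34 had an adjusted p of 0.0156, and 0.053 to 0.0586 with any 1 E19.5 LG library left out. The difference was -3.94 without replicate 2 and -6.74 without replicate 3 of day 14.

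The receptors and ligands of the culture medium were little covered. Egf was lower at 0.179, 0.160 and 0.139 against 1.63, 1.27 and 1.24 FPKM, a log2 difference of -1.04. Egfr, Lrp6 and Rock2 were listed low with means under 0.5 FPKM, as were Fgfr2 and Axin2 without being listed low, and Rock1 was at 0 in all 20 libraries. Wnt3a was listed at 3.26 FPKM in replicate 2 of day 14 and 0 in the other spheres, and was not called.

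**Figure D3:**
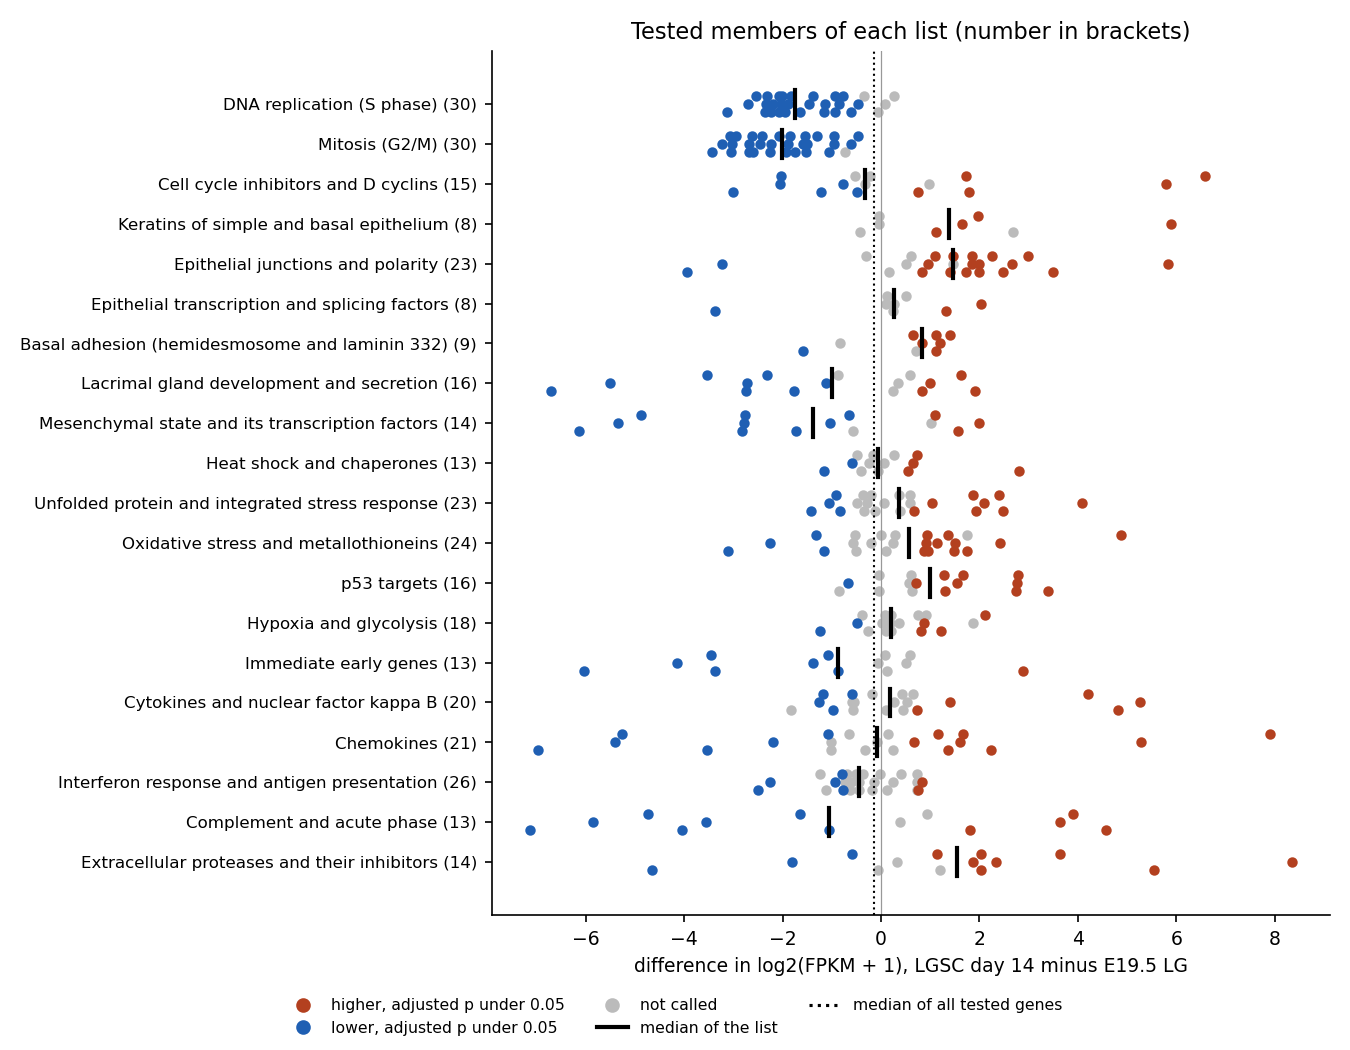
Difference in log2(FPKM + 1) between day 14 and E19.5 LG (x axis) for each tested member of 20 gene lists (rows, number of tested members in brackets), coloured by call, with the list median as a bar and the median of all genes as a dotted line. Nearly all replication and mitosis members lie left of 0, with medians of -1.74 and -2.0, while junction genes and p53 targets lie mostly to the right, with medians of 1.47 and 1.00.

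Stress genes split by pathway. Of 143 members of 6 lists, 107 were tested, with 37 higher, 20 lower and a median of 0.25. The higher and lower members are 34.6% and 18.7% of those tested, against 18.1% and 30.3% of all genes. With replicate 2 of day 14 left out, 41 were higher and 19 lower. TPM and quantile scaling gave 48 and 49 higher, 15 lower in either.

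Among the stress lists, the targets of p53 had the largest share of members higher. Of 19 members 16 were tested, with 9 higher, 1 lower and a median of 1.00, and of the 15 averaging 0.5 FPKM or more in each group 8 were higher. Pmaip1, which encodes the BH3-only protein Noxa, was listed at 86.6, 81.4 and 163 FPKM at day 14 and 7.78, 10.3 and 9.30 FPKM in E19.5 LG, a log2 difference of 3.40 (SE 0.287, adjusted p = 2.26e-04). Ccng1, an early p53 target, was at 449, 178 and 331 against 44.6, 40.7 and 45.8 FPKM, a log2 difference of 2.74 (SE 0.33, adjusted p = 9.63e-04). Zmat3, an RNA-binding target, was at 34.8, 22.1 and 30.04 against 3.65, 3.50 and 2.98 FPKM, a log2 difference of 2.76 (SE 0.192, adjusted p = 1.02e-04). All 3 spheres were above all gland libraries for these, with replicate 2 the lowest. Mdm2, the ubiquitin ligase that limits p53, was higher at 74.9, 50.01 and 111 against 24.4, 24.1 and 26.1 FPKM, a log2 difference of 1.55 (SE 0.281, adjusted p = 0.00514), and Eda2r, a death domain receptor, at 26.2, 13.1 and 39.8 against 2.56, 2.95 and 2.40 FPKM, a log2 difference of 2.79 (SE 0.374, adjusted p = 0.00152). Trp53 itself was at 126, 96.7 and 91.1 against 115, 101 and 102 FPKM, a difference of -0.03 with an adjusted p of 0.878. The pro-apoptotic Bax and Bbc3 differed by 0.58 and 0.63 with adjusted p of 0.228 and 0.155, and by 0.99 and 0.95 with adjusted p of 0.00584 and 0.021 without replicate 2. Ddb2, a DNA repair target, was the lower member, at -0.67, with an adjusted p of 0.0354 that became 0.11 without E19.5 LG replicate 1, 0.119 without E19.5 LG replicate 3, 0.0536 without day 14 replicate 2 and 0.0999 without day 14 replicate 3. Under TPM, quantile and voom scaling it was 0.116 to 0.142.

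Oxidative stress genes had 11 higher and 4 lower of 24 tested, from a list of 28, with a median of 0.58. Srxn1, a sulfiredoxin that repairs peroxiredoxins and a target of Nrf2, was at 74.2, 60.9 and 58.1 FPKM at day 14 and 18.6, 18.8 and 17.49 FPKM in E19.5 LG, a log2 difference of 1.75 (SE 0.139, adjusted p = 1.72e-04). Gclm, the modifier subunit of glutathione synthesis, was higher at 9.35, 23.2 and 11.0 against 4.55, 3.77 and 4.13 FPKM, and the aldo-keto reductase Akr1b8 at 164, 79.2 and 176 against 23.0, 21.8 and 27.5 FPKM. Their log2 differences were 1.49 and 2.41. Gsto1, a glutathione transferase, was at 53.8, 1460 and 288 against 7.96, 8.37 and 9.78 FPKM, a log2 difference of 4.88 (SE 1.093, adjusted p = 0.0117). Replicate 2 was the highest sphere for Gclm and Gsto1 and the lowest for Akr1b8. The difference of Gsto1 was 3.70 without replicate 2 (adjusted p = 0.00829) and 6.07 without replicate 1 of day 14. Lower members were Gstm1 at 29.9, 25.2 and 24.3 against 225, 215 and 262 FPKM, a log2 difference of -3.100 (SE 0.144, adjusted p = 2.12e-05), the extracellular peroxidase Gpx3, with -2.25, and the haem oxygenase Hmox1 at 57.8, 36.6 and 44.9 against 138, 97.8 and 116 FPKM, a log2 difference of -1.33 (SE 0.214, adjusted p = 0.00319). Nqo1, a standard Nrf2 target, was at 27.2, 48.6 and 34.1 against 19.4, 12.96 and 22.6 FPKM, a log2 difference of 0.96 with an adjusted p of 0.0308. That call was lost without E19.5 LG replicate 1 (0.072) or 2 (0.0956) and without day 14 replicate 2 (0.0603) or 3 (0.0716).

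Unfolded protein and integrated stress genes had 8 higher and 4 lower of 23 tested, from 31, with a median of 0.36. Hspa5, the chaperone BiP that rises in classical endoplasmic reticulum stress, was at 460.3, 309 and 437 FPKM at day 14 and 429.5, 589.7 and 665 FPKM in E19.5 LG, a difference of -0.48 with an adjusted p of 0.13. Ddit3 (CHOP) differed by -0.29 with an adjusted p of 0.351. The groups overlapped for both. Trib3, a pseudokinase induced by ATF4, was higher at 46.1, 11.3 and 18.1 against 3.01, 3.40 and 3.30 FPKM, a log2 difference of 2.40 (SE 0.467, adjusted p = 0.00678). Chac1, a glutathione-degrading ATF4 target, was at 17.48, 103 and 13.01 against 0.838, 0.883 and 0.623 FPKM, a log2 difference of 4.08 (SE 0.728, adjusted p = 0.00483). All spheres were above the gland, and replicate 2 was the highest for Chac1 and the lowest for Trib3. Without replicate 2 the difference of Chac1 was 3.18 (adjusted p = 1.78e-04). Slc7a11, the cystine transporter, was at 3.35, 35.2 and 4.07 against 0.665, 0.567 and 0.787 FPKM, a difference of 2.47 with an adjusted p of 0.0411. It was 1.49 with an adjusted p of 9.89e-04 without replicate 2, and not called without replicate 3 (0.0501) or any 1 E19.5 LG library (0.108 to 0.112). Ppp1r15a (GADD34) was lower at 56.6, 80.6 and 87.6 against 179, 204 and 212 FPKM, a log2 difference of -1.41. The serine synthesis gene Psat1 had a difference of -1.06, a call lost without E19.5 LG replicate 2 or 3 (adjusted p 0.085 and 0.0994) and under TPM and voom scaling (0.0877 and 0.0525). Without either of those gland libraries 2 members were lower. Atf4 and Atf3 were at 0 in all 20 libraries, so these transcription factors gave no reading.

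Heat shock genes had 4 higher and 2 lower of 13 tested, from 19, and a median of -0.05 that turned positive under TPM, quantile and voom scaling (0.22 to 0.29). Hspb1 (HSP25), a small heat shock protein of keratinocytes, was at 268, 1837 and 799.7 FPKM at day 14 and 104, 100.3 and 108 FPKM in E19.5 LG, a log2 difference of 2.81 (SE 0.646, adjusted p = 0.013). Replicate 2 was the highest sphere, and the difference was 2.14 without it (adjusted p = 0.0131) and 3.53 without replicate 1 of day 14. Dnaja1, a co-chaperone of HSP70, was lower at 1.86, 1.77 and 2.13 against 4.75, 5.84 and 6.06 FPKM, a log2 difference of -1.16 (SE 0.139, adjusted p = 9.44e-04). Bag3, a co-chaperone of HSP70, was higher by 0.65 on the log2 scale (adjusted p = 0.0118). Hsph1, a large HSP70 relative, and Hspb8 were called higher, with differences of 0.56 and 0.74, and Ahsa1, an activator of HSP90, lower, with -0.58. Hsph1 and Ahsa1 lost their calls without any 1 library except day 14 replicate 1, and Hspb8 without E19.5 LG replicate 1 or 2 or day 14 replicate 1 or 3. The list then had 1 to 3 members higher and 1 or 2 lower, and Hspb1 was the 1 member higher without E19.5 LG replicate 2. Hspa1a, which shares sequence with Hspa1b and is therefore uncertain, was at 4.12, 19.8 and 36.8 against 19.1, 18.9 and 21.9 FPKM and was not called.

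Glycolytic and hypoxia genes showed no common direction as deposited. Of 26 members 18 were tested, with 4 higher, 2 lower and a median of 0.21. This list depended most on scale, with 9 higher under TPM and voom and 8 under quantile normalization, 7 without replicate 2 of day 14 and 2 without E19.5 LG replicate 2. Ndrg1, a hypoxia-induced gene also known from differentiation, was at 36.5, 95.4 and 111 against 17.52, 15.3 and 15.8 FPKM, a log2 difference of 2.11 (SE 0.41, adjusted p = 0.0068). P4ha2, a collagen prolyl hydroxylase, was higher, with a log2 difference of 1.23, and P4ha1, its paralogue, lower, with -1.24. Ldha and Pgk1, glycolytic enzymes, were at 793, 984 and 1041 against 743, 751 and 941 FPKM and 643, 835 and 1332 against 606, 666 and 823 FPKM. They overlapped between the groups and were not called, though Ldha was called higher under TPM, quantile and voom scaling (adjusted p 0.00863 to 0.0226) and Pgk1 under quantile normalization (0.0473). Vegfa, the vessel growth factor induced by hypoxia, was at 52.6, 45.3 and 134 against 35.0, 37.1 and 35.4 FPKM, with replicate 3 the highest sphere. Its difference of 0.91 had an adjusted p of 0.101, and of 0.0483 without replicate 2 and 0.0374 under TPM scaling. Gapdh and Hif1a were not tested, Gapdh being at 0 in all 20 libraries.

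Immediate early genes were mostly lower in the spheres. Of 20 members 18 were found by symbol and 13 tested, with 7 lower and 1 higher and a median of -0.87. Restricted to the 11 that averaged 0.5 FPKM or more in each group, 6 were lower and 1 higher. Egr1 was listed at 5.18, 8.22 and 13.6 FPKM at day 14 and 459, 671 and 746 FPKM in E19.5 LG, a log2 difference of -6.03 (SE 0.347, adjusted p = 4.87e-05). Fos was listed at 28.2, 20.2 and 51.3 against 402, 618 and 706 FPKM, a log2 difference of -4.14 (SE 0.375, adjusted p = 3.00e-04). Every sphere was below every gland library for both of these growth factor and stress response genes. Fosl1, a late-acting Fos family member of keratinocytes, was the 1 higher member, at 51.7, 51.2 and 43.2 against 5.16, 4.95 and 7.39 FPKM, a log2 difference of 2.88 (SE 0.178, adjusted p = 6.42e-05). Jun was at 19.7, 44.1 and 35.4 against 32.3, 34.0 and 31.8 FPKM and was not called. Without replicate 1 of day 14 the list had 3 members higher.

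Inflammation genes were higher and lower in nearly equal number. Of 150 members of 5 lists, 94 were tested, with 27 higher, 25 lower and a median of -0.07. The higher and lower members are 28.7% and 26.6% of those tested, against 18.1% and 30.3% of all genes. Of the 75 averaging 0.5 FPKM or more in each group, 19 were higher and 17 lower. Without replicate 2 the counts were 30 and 22, and without replicate 3 of day 14 they were 22 and 32. The members that were higher included Il1rn, Cxcl5 and C3, and those that were lower Pf4, C1qa and Serping1.

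Of 37 cytokine and NF-κB genes 20 were tested, with 5 higher, 4 lower and a median of 0.18. In each group 17 of them averaged 0.5 FPKM or more, and 3 of these were higher and 3 lower. Il1rn, the interleukin 1 receptor antagonist, was listed at 89.7, 15.5 and 48.0 FPKM at day 14 and 0.0620, 0.121 and 0.0921 FPKM in E19.5 LG, a log2 difference of 5.26 (SE 0.581, adjusted p = 6.79e-04). Il1a, the interleukin 1 that keratinocytes store, was at 11.9, 71.2 and 69.6 against 0.579, 0.282 and 0.452 FPKM, a log2 difference of 4.82 (SE 0.667, adjusted p = 0.00172). Cd14, the co-receptor for lipopolysaccharide, named after its values were seen, was at 253, 100.2 and 371 against 8.73, 10.4 and 12.5 FPKM, a log2 difference of 4.21 (SE 0.468, adjusted p = 6.90e-04). All spheres were above the gland, with replicate 2 the lowest for Il1rn and Cd14 and replicate 1 the lowest for Il1a. Without replicate 2 the difference of Il1rn was 5.93, and without replicate 1 of day 14 that of Il1a was 5.64. Il1b, the interleukin 1 of macrophages, was lower at 0.706, 0.177 and 0.694 against 1.14, 2.04 and 3.01 FPKM, a log2 difference of -0.98 with an adjusted p of 0.0262 that was 0.051 to 0.08 without E19.5 LG replicate 2 or 3 or day 14 replicate 2 or 3, and 0.0535 under quantile normalization. Nfkbia, the inhibitor that NF-κB induces, was at 44.2, 38.7 and 57.3 against 46.2, 84.8 and 88.5 FPKM and overlapped, with an adjusted p of 0.133. It was 0.024 with a difference of -0.90 without E19.5 LG replicate 1. The adhesion molecule Icam1 was lower, with a log2 difference of -1.27, and the list had 2 members lower without E19.5 LG replicate 2 and under quantile normalization. Il6 and Tnf were not tested.

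Chemokines parted into those of each side, with 8 of 21 tested members higher and 6 lower, from 31, and a median of -0.09 that was positive under TPM and quantile scaling (0.07 and 0.11). Restricted to the 16 that averaged 0.5 FPKM or more in each group, 5 were higher and 4 lower. Cxcl5, which draws neutrophils, was listed at 546, 134 and 729 FPKM at day 14 and 0.184, 0.657 and 1.03 FPKM in E19.5 LG, a log2 difference of 7.90 (SE 0.634, adjusted p = 1.84e-04). Ppbp, another ligand of the same receptor, was at 10.6, 201 and 171 against 0.739, 0.719 and 1.30 FPKM, a log2 difference of 5.28 (SE 1.075, adjusted p = 0.00804). Spheres exceeded the gland in every library, with replicate 2 the lowest for Cxcl5 and the highest for Ppbp. The difference of Cxcl5 was 8.64 without replicate 2, and that of Ppbp was 4.55 to 6.62 without 1 day 14 library, lowest without replicate 2. Ccl20, which draws cells bearing CCR6, was higher at 4.66, 5.38 and 3.30 against 0.885, 1.33 and 1.08 FPKM, a log2 difference of 1.36. Pf4, a chemokine of platelets and macrophages, was lower at 0.311, 1.71 and 0.334 against 188, 207 and 240.4 FPKM, a log2 difference of -6.98 (SE 0.306, adjusted p = 1.73e-05). Ccl7, a monocyte chemokine, was at 0.420, 0 and 0.901 against 36.0, 58.9 and 91.3 FPKM, a log2 difference of -5.40 (SE 0.386, adjusted p = 1.15e-04), and Ccl2 was listed at 0 in all spheres and at 2.11, 4.11 and 4.93 FPKM in the gland. None of these overlapped. Cxcl1, listed low, was lower, with a log2 difference of -1.07, a call lost without E19.5 LG replicate 2 or 3 or day 14 replicate 1 or 2 (adjusted p 0.051 to 0.0739).

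The interferon and antigen presentation list had few calls, with 2 higher, 5 lower and 19 not called of 26 tested, from 38, and a median of -0.44. Restricted to the 24 that averaged 0.5 FPKM or more in each group, 2 were higher and 4 lower. Gbp3, an interferon-induced GTPase, was lower at 1.07, 0.895 and 3.65 against 15.5, 9.98 and 17.0 FPKM, a log2 difference of -2.49 (SE 0.387, adjusted p = 0.00275), and Ifit2 at 0.714, 2.09 and 2.27 against 11.8, 10.1 and 12.3 FPKM, a log2 difference of -2.26 (SE 0.268, adjusted p = 9.14e-04). In both, replicate 3 or replicates 2 and 3 were the higher spheres without reaching the gland. Ifi35 and Oasl2 were called higher, with log2 differences of 0.83 and 0.76, the second with an adjusted p of 0.0413 that was over 0.05 without any 1 E19.5 LG library or day 14 replicate 3 (0.0571 to 0.13), so that 1 member was then higher. Ifit1 was at 1.31, 5.67 and 7.75 against 5.86, 2.56 and 7.05 FPKM and was not called. TPM, quantile and voom scaling gave 4 higher and 3 lower. The lower count was 11 without replicate 3 of day 14, and 3 without replicate 1 or 2 of day 14 or without E19.5 LG replicate 1 or 3.

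Complement and acute phase genes had 4 members higher, 7 lower and a median of -1.06 among 13 tested of 24. Of the 8 averaging 0.5 FPKM or more in each group, 4 were lower and 3 higher. C3, the central complement component, was listed at 215, 45.2 and 219.6 FPKM at day 14 and 5.67, 4.17 and 3.74 FPKM in E19.5 LG, a log2 difference of 4.57 (SE 0.614, adjusted p = 0.00152). Cp, the copper-binding acute phase protein ceruloplasmin, was at 59.2, 17.8 and 60.5 against 1.72, 1.86 and 1.69 FPKM, a log2 difference of 3.90 (SE 0.463, adjusted p = 9.14e-04). Both were higher in every sphere, replicate 2 being the lowest, and the difference of C3 was 5.32 without it. C1qa, a macrophage product, was listed at 0 in all spheres and at 133, 129 and 159 FPKM in the gland. Serping1, the C1 inhibitor, was lower at 1.30, 0.145 and 3.11 against 135, 121 and 127 FPKM, a log2 difference of -5.86 (SE 0.438, adjusted p = 1.36e-04). Lcn2, the iron-binding lipocalin, was at 6.03, 1.71 and 10.7 against 0.610, 0.679 and 0.923 FPKM, a log2 difference of 1.81, with an adjusted p of 0.0265 and of 0.0548 to 0.084 in each fit without 1 library other than replicate 2 of day 14, without which the difference was 2.39. Hp (haptoglobin) was not called, at an adjusted p of 0.608, and was higher by 1.06 with an adjusted p of 0.0186 without replicate 2.

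Of 20 extracellular proteases and inhibitors 14 were tested, with 8 higher, 3 lower and a median of 1.54. In each group 10 of them averaged 0.5 FPKM or more, and 6 of these were higher and 2 lower. Spp1 (osteopontin), a secreted matrix protein placed here as a protease substrate, was listed at 3416, 84.4 and 2901 FPKM at day 14 and 2.22, 1.42 and 2.17 FPKM in E19.5 LG, a log2 difference of 8.35 (SE 1.388, adjusted p = 0.00362). Replicate 2 was far below the other spheres and still above every gland library. The difference was 10.08 without replicate 2 (adjusted p = 1.25e-05), and 7.42 and 7.54 without replicate 1 or 3. Serpinb5 (maspin), an epithelial serpin, was at 128, 210.2 and 206 against 1.91, 3.24 and 3.57 FPKM, a log2 difference of 5.54 (SE 0.267, adjusted p = 2.41e-05). Plaur, the urokinase receptor, was at 58.2, 20.9 and 55.6 against 9.22, 9.86 and 8.62 FPKM, a log2 difference of 2.03 (SE 0.39, adjusted p = 0.00638). Both were higher in all spheres. Mmp3 (stromelysin), a stromal protease, was lower at 0, 0.0624 and 0.334 against 29.9, 25.4 and 26.9 FPKM, a log2 difference of -4.66 (SE 0.158, adjusted p = 6.43e-06). Timp3 and Plat were lower, with differences of -1.81 and -0.58, and both calls were lost under TPM scaling. Timp3 also lost its call without any 1 E19.5 LG library or day 14 replicate 2, and Plat without E19.5 LG replicate 2 or 3 or day 14 replicate 3, so that 1 member was lower without E19.5 LG replicate 2 or 3. Mmp9 was at 0.444, 0.540 and 7.96 against 1.23, 1.13 and 1.15 FPKM, with replicate 3 the only sphere above the gland. It differed by 0.32 with an adjusted p of 0.725, and by -0.54 with an adjusted p of 0.0242 without that replicate.

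Over all genes tested, replicate 2 of day 14 correlated at 0.908 and 0.924 with the other spheres and at 0.736 to 0.742 with the gland. For some genes it was nonetheless further from the other spheres than those were from the gland. Of the 125 genes high in it, 121 were also above the other library at day 5, 123 above both others at day 7 and 125 above both at day 10, and of the 31 low genes 30, 31 and 31 were below. Replicate 2 of each culture day therefore shared the pattern, and at day 7 and day 10 it had 99 and 170 genes 8-fold above both others. The genes named in this paragraph were chosen after their values were seen. Krt13, a keratin of stratified mucosa, was at 0.493, 863 and 0.661 against 1.45, 0.550 and 1.12 FPKM, and Krtdap, a keratinocyte differentiation protein, at 0.496, 392 and 4.61 against 27.5, 24.4 and 25.9 FPKM. Krt1, a keratin of cornifying layers, was at 0.0918, 193 and 0.345 against 0.468, 0.318 and 0.156 FPKM. Only replicate 2 was high for these, and none was called, with adjusted p of 0.355 to 0.737. Krtdap was lower than in the gland without replicate 2, with a log2 difference of -3.22 and an adjusted p of 0.00624. Igfbp2, an IGF-binding protein, was at 0.729, 905 and 8.54 against 219, 227 and 258 FPKM, so that replicate 2 alone exceeded the gland and the others were far below. Its adjusted p was 0.25, and 0.00186 with a difference of -5.86 without replicate 2. The low genes included Cyba, the light chain of cytochrome b558, at 174, 3.57 and 70.4 against 123, 117 and 145 FPKM, and Timp1, a metalloprotease inhibitor, at 641, 82.6 and 719 against 24.5, 24.6 and 30.4 FPKM. The difference of Timp1 was 3.63, and 4.64 without replicate 2. Of the 125 high genes, 4 were called higher and 6 lower than E19.5 LG with all libraries, and 9 and 45 without replicate 2. Of the 31 low genes, 4 were higher and 6 lower with it, and 19 and 7 without it. Whether replicate 2 is another culture, donor or mixture of cells is not given in the labels.

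**Figure D4:**
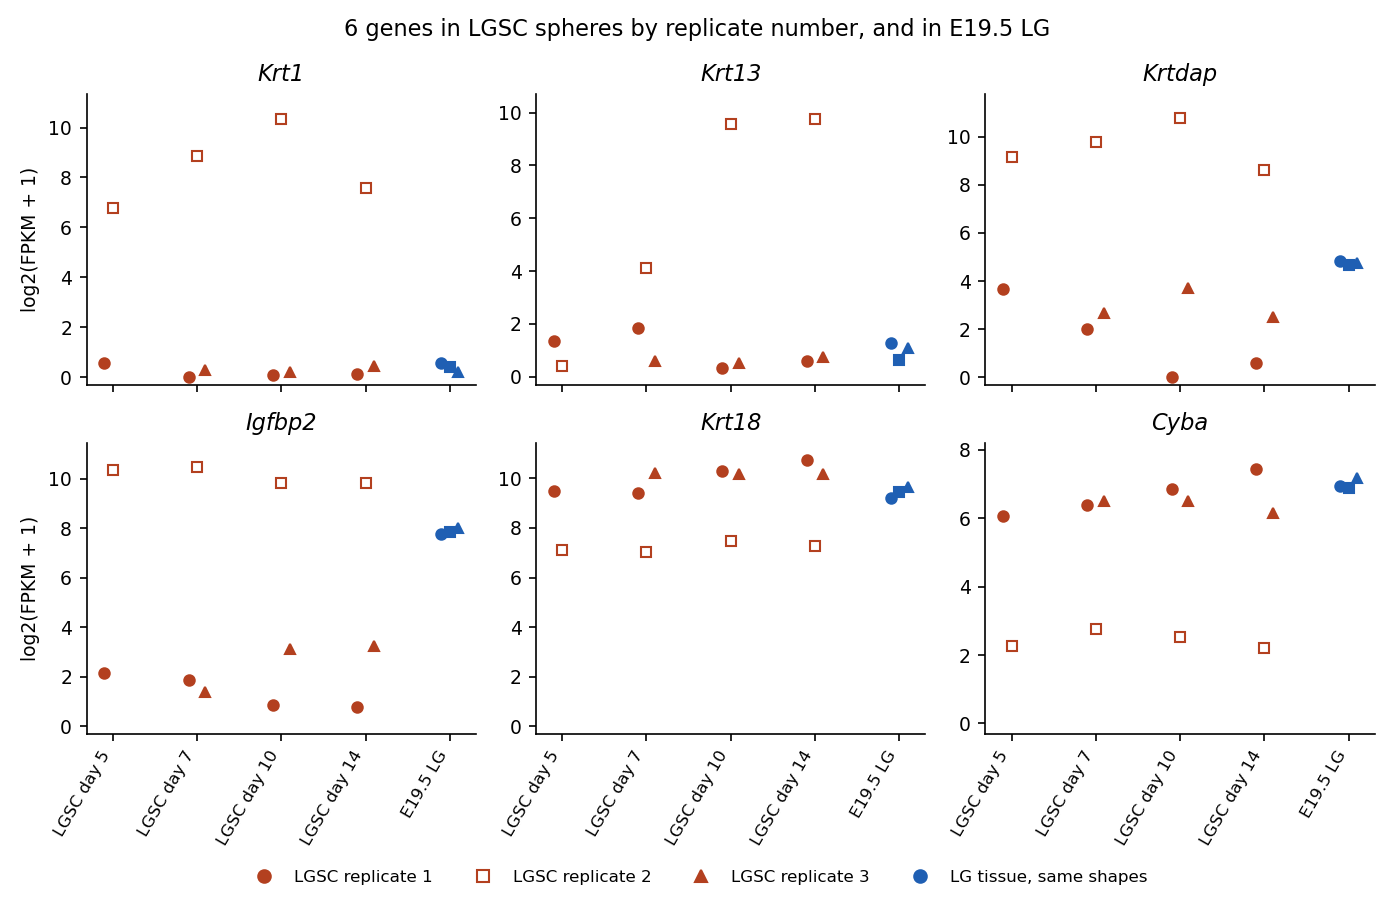
Level of 6 genes, as log2(FPKM + 1), in LGSC spheres at days 5, 7, 10 and 14 (red, replicate 2 as open squares) and in E19.5 LG (blue). Replicate 2 is far above the other spheres for Krt1, Krtdap and Igfbp2 on all 4 days and for Krt13 at days 10 and 14, and below them for Krt18 and Cyba.

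Values from the other groups place the comparison in time, as a description with no test since these libraries share the culture or tissue series. Ccnb1 was at 46.1 and 47.9 FPKM in the 2 libraries of day 5, at 25.1, 47.8 and 23.2 FPKM at day 7, at 12.5, 28.3 and 18.1 FPKM at day 10 and at 7.56, 12.6 and 7.42 FPKM at day 14. Every sphere library was below E17.5 LG (77.7 to 94.6 FPKM) and E19.5 LG (62.9 to 94.2 FPKM), and day 14 spheres were above adult LG, at 0.748 to 1.18 FPKM. Plk1 at day 5 (78.8 and 77.5 FPKM) was within the range of E19.5 LG and was at 12.04 to 15.84 FPKM by day 14. Cdkn2b was already at 304.5 and 275.2 FPKM at day 5, against 1.26 to 1.48 FPKM in E17.5 LG and 4.24 to 5.89 FPKM in adult LG, so its level was high on days when mitotic genes were high and when they were low. Krt17 was likewise high from day 5, at 3552 and 5800 FPKM and thus above the 1580 to 3079 FPKM of day 14, and Pmaip1 at 93.4 and 103.9 FPKM. Cxcl5 was at 174.5 and 36.5 FPKM at day 5 and Spp1 at 246.5 and 132.1 FPKM, below the day 14 values of replicates 1 and 3 for both. Replicate 2 of Spp1 stayed between 81.5 and 132.1 FPKM on all 4 days. Ltf was at 0 in both day 5 libraries, at 0.0371 to 0.1295 FPKM at day 7 and at 1.27 to 3.21 FPKM at day 14, beside 0.961 to 6.65 FPKM in adult LG, where it too was listed low. All FPKM values of a library summed to 2774523, 2501607 and 659916 in adult LG, against 310144 to 335020 at day 14 and 376838 to 463179 in E19.5 LG. Adult values are therefore not on the scale of the spheres, and the sums of the 2 groups compared differ to a lesser degree.

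**Figure D5:**
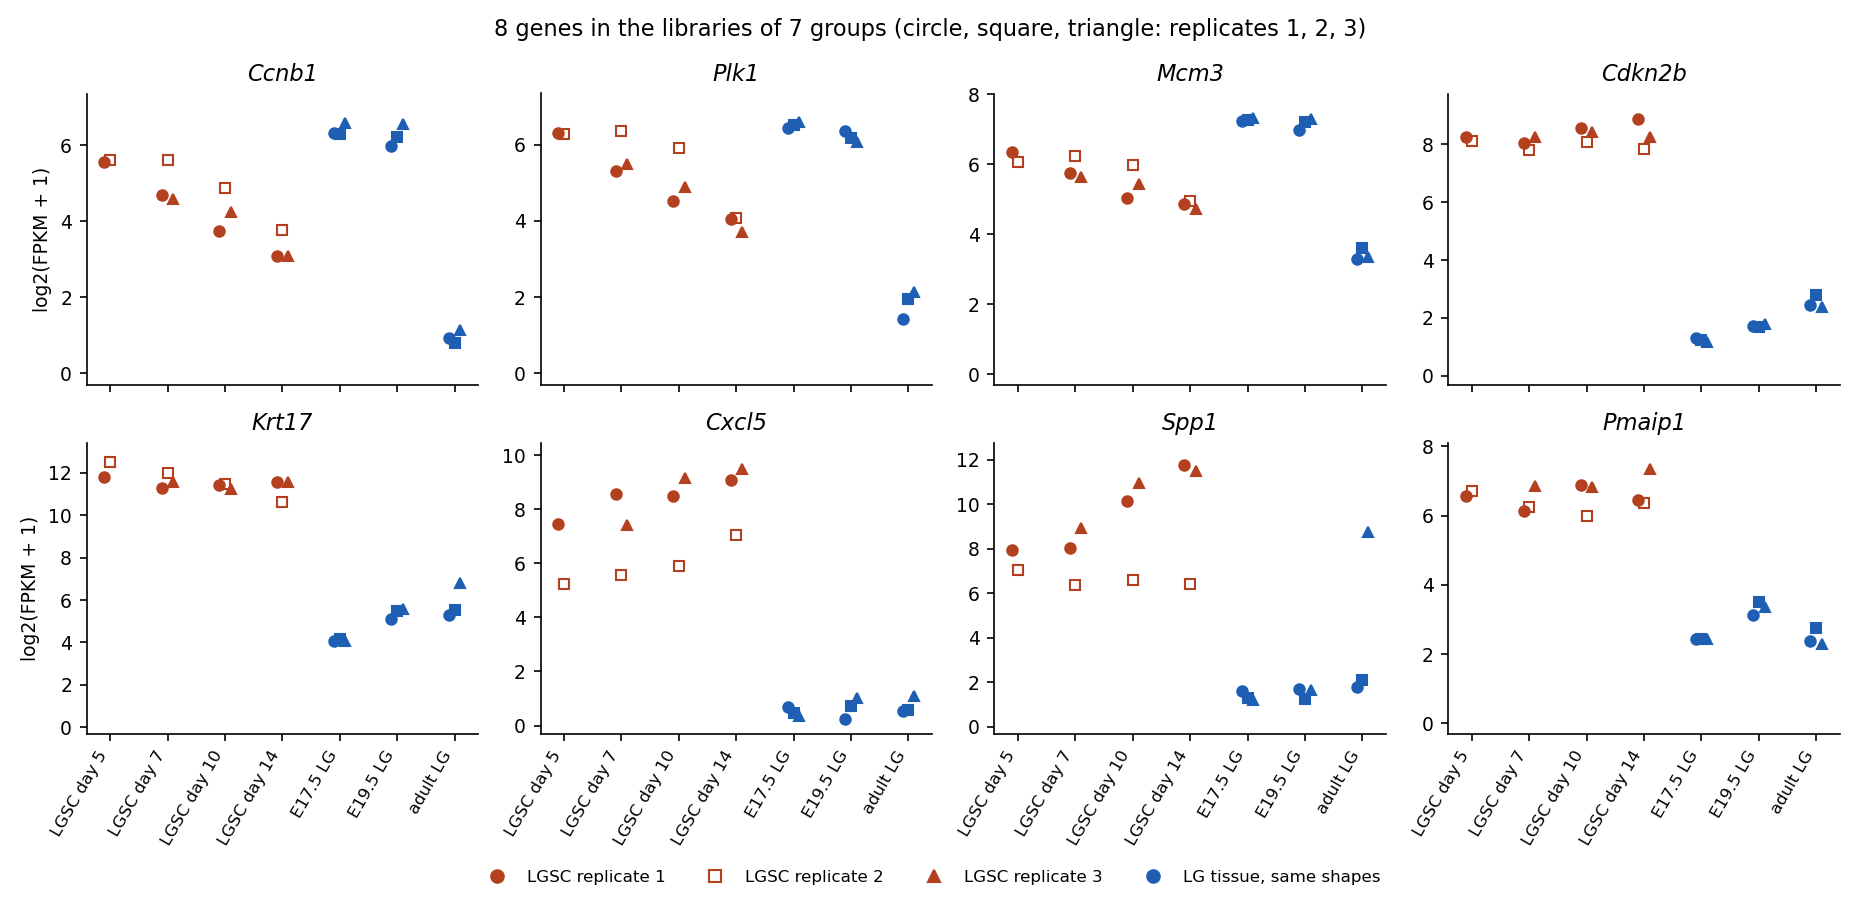
Level of 8 genes, as log2(FPKM + 1), in each library of LGSC spheres at days 5 to 14 (red, replicate 2 open) and of E17.5, E19.5 and adult LG (blue). Ccnb1, Plk1 and Mcm3 are lowest at day 14 among the spheres, whereas Cdkn2b, Krt17 and Pmaip1 are far above all LG libraries on each culture day.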

How the data were processed

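RNA-seq libraries were made from poly-A RNA, and the submitters' processing notes name CASAVA 1.8, HISAT2 2.0.5, featureCounts 1.5.0-p3 and the build NCBIM37. The authors deposited FPKM values, 1 table per library. The step from counts to FPKM and the gene annotation are not given in the sources used here. Of the 52636 Ensembl identifiers, 52403 matched a symbol of GENCODE M21, and 11226 loci were assembled from reads. In the 6 libraries compared, 93.3 to 93.6% of low values were whole reads within 0.01.

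Genes averaging 0.5 FPKM or more over the 6 libraries were tested on log2(FPKM + 1) with limma 3.58.1 (lmFit, eBayes with trend, R 4.3.3), without covariates, and p-values were adjusted over all genes tested by Benjamini-Hochberg, with 0.05 as threshold. Fold changes on this scale understate those of low genes. The recovered reads (7201131 to 9146820 per library) limit the precision of low genes. The fit was tested on simulated data. Alternatives were a pseudocount of 0.1, no filter, a filter at 5 FPKM, TPM, quantile normalization, voom on recovered reads, all passage 2 and tissue libraries in 1 fit, a replicate block, leaving out each library and, added after seeing the data, leaving out genes listed low. Strand was not stated, so overlapping antisense genes cannot be told apart.

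The gene lists and members were chosen with earlier results of these data known. The genes named were the 12 largest differences in each direction among protein-coding genes past the threshold whose groups did not overlap and whose mean reached 1 FPKM, the first 6 of each list with the 2 largest called differences each way, and genes that the study stained or that its medium addresses. Others, such as Gadd45a, Rb1, Tk1, Rfc3, Pola2, Hmgb2, Cdc20, Ube2c, Trp53, Itga3, Gapdh, Hif1a, Bag3, Fbln1, Mcam, Timp1 and Cyba, were chosen after their values were seen. Promoter sequences are those of RefSeq on GRCm38.p6, and none was read by coordinates from the deposited tables. Some members of the lists are not reported here by name.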

Additional observations from a re-analysis of the deposited data

Results flagged for a closer look

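The passage 10 library, which was made against another gene list and entered no comparison, listed Krt8 at 413.8 FPKM, Epcam at 261 FPKM and Mki67 at 19.51 FPKM. All 3 genes were listed at 0 in each of the 20 passage 2 and tissue libraries, among them epithelial tissue where Krt8 and Epcam are expected. They were marked as a signal in data outside the comparison. Why the 20 tables list them at 0 was not tested.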

How the results depend on the processing

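No gene called as reported was called in the opposite direction under any alternative. The counts of higher and lower genes were 1023 and 2105 with a mean of at least 5 FPKM, which tests fewer genes (5604), and the proliferation lists then had 3 higher and 38 lower, the epithelial lists 20 higher and the inflammation lists 16 lower. Leaving out 1 library gave 2111 to 3375 genes higher, fewest without E19.5 LG replicate 2, and 13 to 19 stress members lower, fewest without E19.5 LG replicate 3. Krt18 (1.03), Cldn3 (0.60) and Asprv1 (-2.05, adjusted p = 6.18e-04 by limma, against 0.19 with all libraries) reversed without day 14 replicate 2, and Mmp9 (-0.54) without day 14 replicate 3. Over the fits without 1 library their differences ran from -0.73 to 1.03 for Krt18, -0.88 to 0.60 for Cldn3, -2.05 to 1.39 for Asprv1 and -0.54 to 0.78 for Mmp9. The cause was not tested. Of the 8519 called genes, 84.2% were also called under TPM and 85.8% under quantile normalization. Voom on recovered reads tested 6635 of them and called 5695, which is 85.8% of those it tested and 66.9% of all.

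Between same-numbered libraries of the 2 groups, the deviations from the group means correlated at -0.039, 0.024 and -0.024. Differently numbered pairs gave -0.032 to 0.06. The labels do not say whether a shared number stands for a shared batch, and so few pairs cannot settle it. With the replicate as a block, 2583 genes were higher and 4641 lower, 82.9% of the called genes were called in both fits, and 11 of 218 named genes lost their call. The proliferation lists had 5 higher and 57 lower, the epithelial 33 and 21, the stress 32 and 18 and the inflammation lists 24 and 23.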

Other observations

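Grb10 and Esp6, outside the comparisons of lists, stood far from the gland and are given as values, chosen after they were seen. The imprinted growth inhibitor Grb10 was listed at 0.247, 0.148 and 0.0927 against 152, 139 and 147 FPKM, day 14 first and E19.5 LG second. Esp6, of the exocrine-gland secreted peptide family, was at 0, 0 and 3.66 against 265, 309.7 and 357 FPKM. Both were near 0 in the spheres, apart from Esp6 at 3.66 FPKM in replicate 3. Krt19 and Fap are list members given here because the study stained them. Krt19, a keratin of ducts, was listed low at 1.03, 0.0606 and 0.714 against 0.185, 0.180 and 0.344 FPKM. Its groups overlapped and it was not tested. Fap, a fibroblast protease, was at 0, 0 and 0.0213 against 1.15, 0.805 and 0.495 FPKM.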
